A study of Homo sapiens with 267 samples.

Results

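The genes described here encode the subunits of the 26S proteasome, and they were the rows of the deposited count table whose Ensembl identifiers map to 34 listed gene symbols. Of these symbols, 33 were matched among the 63677 genes of the table, and PSMB3, a structural subunit of the core, was not analysed here. The matched genes were 7 subunits of the alpha ring of the 20S core (PSMA1 to PSMA7), 3 non-catalytic beta subunits (PSMB1, PSMB2 and PSMB4), 3 constitutive catalytic beta subunits (PSMB5, PSMB6 and PSMB7), 3 inducible catalytic beta subunits (PSMB8, PSMB9 and PSMB10), 6 ATPases of the base of the 19S regulatory particle (PSMC1 to PSMC6), 3 other subunits of the base (PSMD1, PSMD2 and PSMD4) and 8 subunits of the 19S lid.

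The study tested whether cells fixed with DSP, a crosslinker whose bond is cut again by a reducing agent, give single-cell RNA sequencing libraries like those of fresh cells, and used K562, an established human myelogenous leukaemia line, captured on the C1 microfluidic system. Libraries came from 3 runs, named here by what the labels say was done to the cells. The labels name no separate cultures within a run, so each run was treated as 1 culture. In the Hoechst run all cells were untreated, stained with a Hoechst DNA dye and propidium iodide, and labelled as passages 90 to 92. In the benzene run, untreated cells were stained with CellTracker Green CMFDA, and cells treated with 10 mM benzene for 3 h were stained with CellTracker Orange CMRA. In the imatinib run, untreated cells were again stained Green, and cells treated for 1 h with 1 µM imatinib, which inhibits the BCR-ABL kinase that drives this line, were stained Orange. Both CellTracker runs also carried a LIVE/DEAD Fixable Red stain and were labelled as passages 20 to 22. Treatment and stain were therefore the same split, and the labels do not say which libraries came from fresh cells, fixed cells or bulk samples, so fixation was not analysed here.

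The proteasome degrades proteins that carry ubiquitin chains. The 19S particle binds the chain, removes it and threads the unfolded protein through its ATPase ring into the 20S core, a stack of 2 outer alpha rings and 2 inner beta rings, and there PSMB5, PSMB6 and PSMB7 cut the chain with chymotrypsin-like, caspase-like and trypsin-like activity. Interferon induces PSMB8, PSMB9 and PSMB10, which replace PSMB5, PSMB6 and PSMB7 in newly assembled immunoproteasomes and change the peptides that are presented on HLA class I. Transcription of the constitutive subunits is known to be raised together by NFE2L1, a factor that binds the antioxidant response element when proteasome activity falls short.

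Because constitutive and inducible subunits are controlled differently, RefSeq promoter windows of build GRCh38.p14, reaching from 250 bases before to 50 bases after a start site, were searched on both strands for 3 motifs. A window was available for 29 of the 34 symbols, 36 windows in all. The core of the antioxidant response element, TGACNNNGC, was found in 8 of the 36 windows (22.2%), against 13.3% of 35116 windows of all genes, and the CCAAT box in 16 (44.4%) against 34.6%. The gamma-activated site, TTCNNNGAA, through which interferon gamma acts, was found in 6 (16.7%) against 7.66%. These were windows of PSMA2, PSMB5, PSMB8, PSMC4, PSMD2 and PSMD3. Only PSMB8 of them is inducible, and the inducible PSMB9 and PSMB10 lacked the site. Windows of 3 genes are shown with these motifs in capitals: PSMB4, which had the highest level of all subunits in both CellTracker runs, the inducible PSMB9, which was nearly absent, and the ATPase PSMC4, which was lower in the Hoechst run.
PSMB4, chr1:151399323-151399622, plus strand: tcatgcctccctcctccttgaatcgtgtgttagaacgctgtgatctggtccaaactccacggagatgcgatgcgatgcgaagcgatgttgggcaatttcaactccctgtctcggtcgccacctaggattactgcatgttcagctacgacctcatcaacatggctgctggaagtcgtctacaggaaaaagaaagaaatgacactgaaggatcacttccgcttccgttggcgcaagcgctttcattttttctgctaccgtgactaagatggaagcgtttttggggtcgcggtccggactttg
PSMB9, chr6:32853942-32854241, plus strand: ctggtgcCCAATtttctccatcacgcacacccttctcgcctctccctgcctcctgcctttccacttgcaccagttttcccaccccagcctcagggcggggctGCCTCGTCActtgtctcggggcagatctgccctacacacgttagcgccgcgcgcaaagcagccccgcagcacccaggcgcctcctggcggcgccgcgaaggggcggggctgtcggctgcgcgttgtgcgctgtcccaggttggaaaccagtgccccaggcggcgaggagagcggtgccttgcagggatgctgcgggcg
PSMC4, chr19:39970915-39971214, plus strand: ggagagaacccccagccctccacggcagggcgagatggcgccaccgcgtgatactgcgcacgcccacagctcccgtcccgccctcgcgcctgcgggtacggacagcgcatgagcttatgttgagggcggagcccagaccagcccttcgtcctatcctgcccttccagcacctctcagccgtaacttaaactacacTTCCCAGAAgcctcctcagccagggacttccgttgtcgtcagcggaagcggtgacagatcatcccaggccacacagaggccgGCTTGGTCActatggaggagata
No motif was found in the PSMB4 window. In the PSMB9 window the CCAAT box began 243 bases before the start site and the antioxidant response element core 148 bases before it, the latter on the minus strand. In the PSMC4 window a gamma-activated site began 55 bases before the start site and an antioxidant response element core, on the minus strand, 27 bases after it. The motifs are matches of letters only and do not show that a factor was bound.

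Counts were present for 263 libraries, with 50358 to 2043351 reads on genes, and 242 libraries with at most 70% of these reads in their 500 most abundant genes were kept (82, 65 and 95 in the Hoechst, benzene and imatinib runs). Of the 21 left out, 14 belonged to the Hoechst run. Libraries of 1 run were taken as coming from 1 culture, most from single cells. The paper lists a few bulk samples in each experiment, and the labels do not mark which libraries these are. Any bulk libraries kept are part of the sums, spreads and correlations below. Libraries of 1 run are not replicates of a condition, so differences between runs or stains are given without a test unless stated. The intervals cover counting error only, since reads carried no molecular identifiers. Markers of K562 were present in every run, for example GATA1 at 432, 399.7 and 500.2 CPM (read counts scaled to the total on genes) in the summed reads of the Hoechst, benzene and imatinib runs. The lymphocyte markers CD3E, MS4A1 and CD79A were each at 0.0334 CPM or less, whereas CD3D reached 129.9, 41.5 and 9.26 CPM.

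Levels of different subunits were compared as reads per kilobase of the main transcript, scaled to the total over all annotated genes as CPM are, from reads summed over the kept libraries of each run. PSMB4, PSMB1 and PSMB5 of the beta ring stood at the top, and the inducible subunits and PSMA2 near the bottom. PSMB4 and PSMB1, structural beta subunits, reached 1067 and 1402 in the Hoechst run, 2845 and 1922 in the benzene run and 2790 and 1805 in the imatinib run. PSMB5, which carries the chymotrypsin-like site, had the third highest level in the Hoechst and benzene runs, at 726 and 1277, and was second in the imatinib run, at 1812. The 3 constitutive catalytic subunits lay within 1.59-fold, 1.68-fold and 2.31-fold of each other in the 3 runs, with PSMB7 lowest. By main transcript, the beta subunit PSMB2 was far below the other constitutive beta subunits, at 57.2, 184.3 and 188.7. The 3 non-catalytic beta subunits thus spanned 24.5-fold, 15.4-fold and 14.8-fold. Of the 4426 bases of this PSMB2 transcript, 603 are coding. Per kilobase of coding sequence PSMB2 was at 419.7, 1353 and 1385. That was still below PSMB1 and PSMB4 in every run but above PSMB7 in the benzene and imatinib runs (899 and 930). The distance of PSMB2 from its ring therefore depends on the length used. The alpha ring spanned more than these beta genes by main transcript. It ran from PSMA2 at 7.44, 4.87 and 8.96 to PSMA7 at 569, 986 and 1018. Medians of the 6 ATPases were 153.7, 326 and 367 and those of the 8 lid subunits 141.4, 240.3 and 282.2, against 121.7, 173.7 and 158.1 for the alpha ring. This order depends on the length used. Per kilobase of coding sequence the alpha ring median, that of PSMA3, was 404, 616 and 558. It was then above the lid median in every run and above the ATPase median in the Hoechst and benzene runs. The per-length levels that follow are again by main transcript. Within the lid, PSMD3 was lowest in every run (24.4, 9.11 and 45.9), and PSMD14, the deubiquitinase that cuts ubiquitin chains off substrates, was highest in the Hoechst and benzene runs (247.8 and 468), with PSMD8 highest in the imatinib run (498). The 3 lowest genes of the whole set were PSMB8, PSMA2 and PSMB10 in the Hoechst run, PSMA2, PSMB9 and PSMD3 in the benzene run, and PSMB9, PSMB8 and PSMA2 in the imatinib run. This order rests in part on single libraries, since PSMB9 in the Hoechst run fell from 7.48 to 1.02 CPM without the library with the most reads of it.

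**Figure D1:**
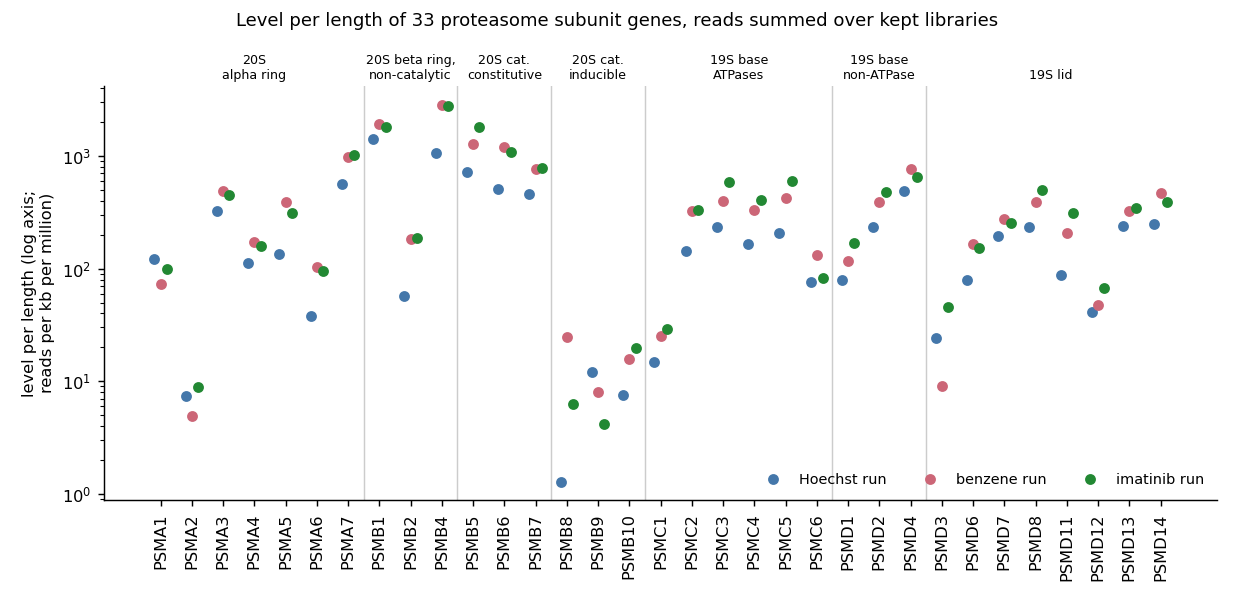
Level per length of each subunit gene (y axis, reads per kb, scaled as CPM, log scale), from reads summed over the 82, 65 and 95 kept libraries of the 3 runs and ordered by role on the x axis. PSMB4 and PSMB1 lie above 1000 in every run, while PSMB8, PSMB9 and PSMB10 lie below 25.

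The order of the 33 subunits was much the same in the 3 runs. Spearman correlations of the per-length levels were 0.962 between the Hoechst and benzene runs, 0.959 between the Hoechst and imatinib runs and 0.972 between the benzene and imatinib runs, against 0.729, 0.726 and 0.801 over all genes at a mean of at least 10. The 32, 30 and 31 subunits that pass the same limit had correlations of 0.959, 0.948 and 0.969. Genes of 1 sample are not independent, and gene length, shared by all runs, is part of each value. Several low levels coincided with a gene model that other genes overlap or copy, which unstranded counting of unique reads cannot resolve. Exons of another annotated gene covered 100% of the main transcript of PSMA2, 83.2% of PSMC1, 81.4% of PSMA6, 67% of PSMA1, 56.1% of PSMB10 and 51.6% of PSMD7. For PSMC1, pseudogenes held 56.1% of the reads of the gene and its pseudogenes together, and for PSMA6 23.1%. PSMD7, in contrast, was overlapped as well but was at 195, 275.4 and 251.8 per kilobase, and PSMD3 was low although no other gene overlapped its main transcript. The part of overlap in the low levels was not tested.

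The share of reads on the subunits showed how much of the measured messenger pool the proteasome took in each library. Over the kept libraries the share of gene reads on the 33 genes ran from 0.252% through a median of 0.668% to 1.31% in the Hoechst run, from 0.721% through 1.32% to 2.06% in the benzene run and from 0.653% through 1.34% to 1.72% in the imatinib run. The Hoechst run was thus below both CellTracker runs in its median, with overlapping ranges. In the CellTracker runs Green and Orange libraries had close medians, 1.32% and 1.31% in the benzene run and 1.31% and 1.38% in the imatinib run. The SD over single libraries was 0.166 to 0.338 within these groups, and the difference between medians was not tested. Mitochondrially encoded genes took a median of 12.5% of reads in the Hoechst run against 6.48% and 6.68%, and across libraries the subunit share was lower where this share was higher (Spearman rho -0.55, -0.18 and -0.42 over 82, 65 and 95 libraries, which share the library total as denominator). Without mitochondrial genes the medians were 0.778%, 1.35% and 1.42%, with the Hoechst run again lowest. The mean per-length level of the core genes over that of the regulatory particle genes had medians over libraries of 2.13, 2.39 and 2.07.

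**Figure D2:**
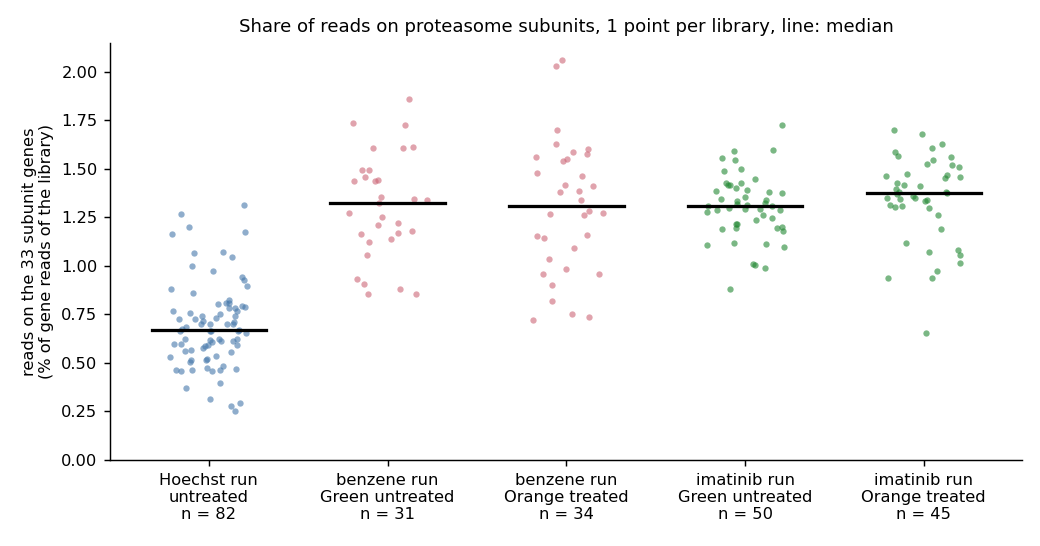
Percent of gene reads that fall on the 33 subunit genes (y axis), 1 point per kept library, in the 5 groups (x axis), with the group median as a line. The Hoechst run has a median of 0.668%, and the other 4 groups have medians between 1.31% and 1.38%.

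Most constitutive subunits were found in most libraries. With more than 2 reads as detected, a library held a median of 29 of the 33 genes in the Hoechst run (14 to 32), 29 in the benzene run (23 to 32) and 30 in the imatinib run (27 to 33). All 30 constitutive genes were detected together in 26 of 82, 11 of 65 and 53 of 95 libraries. PSMB1, PSMD7 and 2 further genes of the Hoechst run, PSMA1 and PSMB5, were detected in all of its libraries, and 8 and 20 genes were so in the other runs. Detection in at least 90% of libraries was reached by 25, 25 and 28 of the genes, and by 2539, 1645 and 3276 of all 63677 genes of the table. Constitutive genes well below that were PSMA2 (70.7%, 50.8% and 65.3% in the 3 runs), PSMC1 (70.7%, 67.7% and 95.8%) and PSMA6 (69.5%, 89.2% and 98.9%). Genes under 50% were PSMB8, PSMB9 and PSMB10 in the Hoechst run, the same genes and PSMD3 (44.6%) in the benzene run, and PSMB8 and PSMB9 in the imatinib run. Thinning each library to 500000 reads, which left out 2 libraries of the Hoechst run, gave medians of 28, 27 and 30 genes.

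Levels of single subunits nevertheless spread widely from library to library. PSMB1 varied least of the constitutive subunits in every run, with an SD of log2(CPM + 1) of 1.03, 0.55 and 0.51, and its lowest library in the benzene run was still at 346 CPM. PSMB5 ran from 1.49 CPM through a median of 790 to 2826 CPM in the benzene run, with an SD of 2.28, but from 24.6 through 1127 to 2259 CPM in the imatinib run, with an SD of 0.91. PSMC1 was without reads in 14 of 82 and 14 of 65 libraries of the Hoechst and benzene runs and in 1 of 95 of the imatinib run. Spread was therefore a property of the run as well as of the gene, and the number of genes detected per library had a median of 7410.5, 5905 and 8022 in these runs.

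The inducible subunits formed a minor part of the catalytic messages. Of the per-length level of all 6 catalytic genes, PSMB8, PSMB9 and PSMB10 together made up 1.23%, 1.48% and 0.811% of the summed reads in the Hoechst, benzene and imatinib runs, but only 0.0187%, 0.0545% and 0.248% in the median library, since few libraries held most of their reads. Without the library with the most inducible reads the summed shares were 0.627%, 0.908% and 0.697%. PSMB8, the inducible counterpart of PSMB5, was detected in 7 of 82, 6 of 65 and 7 of 95 libraries, and 73, 56 and 83 libraries held no read of it. PSMB9, the counterpart of PSMB6, was detected in 6, 2 and 10 libraries. PSMB10, the counterpart of PSMB7 and partly covered by another gene, was the most widespread, with 22, 26 and 54 libraries and highest values of 106, 125.3 and 129.6 CPM, while its medians were 0, 0 and 4.13 CPM.

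A few libraries stood far above the rest. In the benzene run, 1 Green library held 993 of the 1505 PSMB8 reads, at 674 CPM, where PSMB5 was at 3.40 CPM against a run median of 790 CPM. In that library the inducible share of the catalytic level was 56.2%, and 3959 genes were detected, the fewest of the kept libraries of its run. In the Hoechst run, 1 library held 674 of 779 PSMB9 reads, at 435 CPM, beside PSMB6 at 441 CPM. No library of the Hoechst run had both PSMB8 and PSMB9 detected, whereas 2 of the benzene run and 4 of the imatinib run did. Shares above 5% were seen in 3 libraries of each run. Of the interferon response genes, GBP1 had no read in any run, which allows up to 0.0288, 0.034 and 0.0251 CPM, MX1 was at 0, 0.0453 and 0.142 CPM and IFIT1 at 1.98, 0.0906 and 0.00835 CPM, while ISG15 was at 28.5, 28.8 and 30 CPM.

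Whether subunits of the complex vary together over cells was described by Spearman correlations of CPM over the libraries of a run, for genes detected in at least 50% of them. Co-variation was weak. The median over pairs of subunits was 0.14 in the Hoechst run (435 pairs, 82 libraries), 0.05 in the benzene run (406 pairs, 65 libraries) and 0.08 in the imatinib run (465 pairs, 95 libraries), beside 0.03, 0.05 and 0.04 over all pairs of genes. After adjustment for the number of genes detected, the medians were 0.13, 0.05 and 0.05. With all libraries, including those of low complexity, the median of the Hoechst run was 0.34 beside 0.18 over all genes, so that value moved with the choice of libraries. Pairs within the core had medians of 0.19, 0.17 and 0.07, and pairs within the regulatory particle 0.11, 0.03 and 0.07. The closest pairs were PSMA5 and PSMB2 in the Hoechst run (0.49), PSMB1 and PSMB2 in the benzene run (0.58) and PSMD6 and PSMD14 in the imatinib run (0.47). Among genes that passed in every run, PSMA6 had the highest mean of its median correlations with the others (0.25, 0.15 and 0.15) and PSMD2, a base subunit that receives ubiquitin receptors, the lowest (0.08, -0.05 and 0.00).

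The 6 constitutive beta subunits were singled out after the correlations were seen, so their values describe the block in the plot of correlations and test nothing. Their 15 pairs had medians of 0.2, 0.37 and 0.19 in the Hoechst, benzene and imatinib runs, and all 15 were above 0 in the Hoechst and benzene runs and 12 in the imatinib run. The 21 pairs of alpha subunits had medians of 0.16, 0.04 and 0.02, with 17, 11 and 12 pairs above 0. Within the stains of the benzene run the beta pairs were at medians of 0.37 (31 Green libraries) and 0.41 (34 Orange libraries), and within those of the imatinib run at 0.16 (50 Green libraries, 10 pairs above 0) and 0.12 (45 Orange libraries, 11 pairs above 0). Pairs share the depth and quality of their libraries, and alpha subunits include PSMA1, PSMA2 and PSMA6, whose gene models are overlapped.

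**Figure D3:**
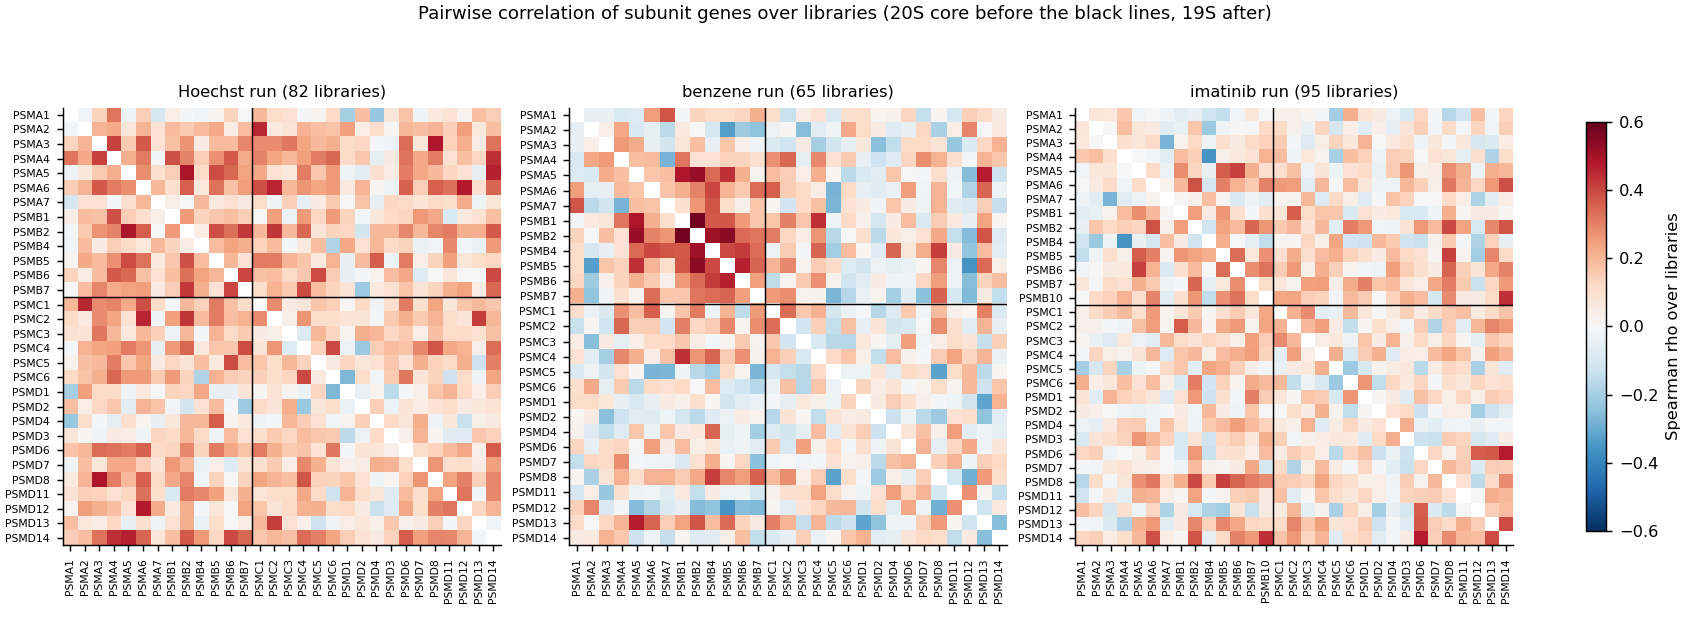
Spearman correlation (colour, blue negative and red positive) of each pair of subunit genes over the kept libraries of a run, in the same order of genes on both axes. Medians over pairs are 0.14, 0.05 and 0.08, and the block of beta subunits in the benzene run has a median of 0.37.

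Untreated cells were available in all runs, and their summed reads showed lower subunit levels in the Hoechst run. Ratios are on the scale of log2(CPM + 1), and genes at a mean of at least 10 CPM over both sums were counted. Against the untreated Green libraries of the benzene run, 28 of 30 subunits were lower in the Hoechst run, with a median of -0.81 (all 8770 genes 0.12). Of these, 8 were at least 2-fold lower and 1, PSMD3, at least 2-fold higher, where 13.5% of all genes were 2-fold lower and 21.2% higher. Against Green libraries of the imatinib run, 28 of 29 were lower, with a median of -0.98 (all 8842 genes 0.09), and 14 were at least 2-fold lower and 0 higher, where 12.6% of all genes were lower and 18.1% higher. These comparisons share the Hoechst libraries. Core and regulatory genes had similar medians, -0.83 and -0.78 in the first and -0.90 and -0.98 in the second comparison. Lot of cells, passage, dye, read length and sequencer differed with the run. By the paper's account, cells stained as dead were sequenced in the experiment with Hoechst dye and left out of the others. Storage time of the fixed cells differed between these experiments as well. These differences cannot be told apart.

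PSMA5, PSMA6, PSMB2, PSMB4, PSMC2 and PSMD11, of 29 subunits counted in both comparisons, were at least 2-fold lower in both. The share of all genes lower in both was not computed, and the comparisons share the Hoechst libraries. PSMB2, a structural beta subunit, ran from 0 through a median of 65.9 to 1018 CPM in the Hoechst run, from 0.734 through 475 to 1460 CPM in the benzene run Green libraries and from 15.2 through 470.4 to 885 CPM in those of the imatinib run. Its log2 ratios were -1.60 (95% counting interval -1.64 to -1.57) and -1.61 (-1.65 to -1.59), and the ranges overlapped. PSMD11, a scaffold of the lid, ran from 0 through 176.8 to 1016 CPM in the Hoechst run against 5.95, 328.5 and 2276 CPM and 272.5, 662 and 1250.1 CPM, with ratios of -1.49 and -1.73, and in the last group every library stood above the Hoechst median. PSMA5 had a median of 244.9 CPM in the Hoechst run against 900.2 and 663 CPM, with ratios of -1.59 and -1.06. PSMC5, an ATPase, was at a median of 125.4 CPM against 203.6 and 438 CPM, with ratios of -0.93 and -1.51. The smallest differences from the imatinib run were -0.10 for the ATPase PSMC6 and -0.23 for PSMB1, but 1 Hoechst library held 21.8% of the PSMC6 reads of its run and the ratio was -0.43 without it.

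PSMA1 was the only subunit counted in both comparisons that was higher in the Hoechst run in both, with medians of 79.4 CPM against 26.2 and 62.1 CPM and log2 ratios of 0.73 and 0.30. PSMD3 was higher than in the benzene run (1.77) and lower than in the imatinib run (-0.98), with medians of 11.2 CPM against 1.54 and 39.1 CPM. PSMB8 was counted only against the benzene run, at -3.72, and was at 0.68 without the single Green library that held most of its reads. Leaving out the library with the most reads of a gene also took PSMD6 (-1.18 to -0.98) below 2-fold against the benzene run, and PSMD1 (-1.01 to -0.94) and PSMD8 (-1.01 to -0.98) against the imatinib run. It brought PSMC1, PSMC4, PSMC5 and PSMC6 past 2-fold in the first and PSMD3 and PSMD6 in the second comparison. With every library weighted equally PSMD12 and PSMD13 were higher in the Hoechst run than in the benzene run, by 0.51 and 0.24, in place of ratios of -0.21 and -0.35. TMM scaling, which assumes that most genes do not change, moved the median of all genes from 0.12 to -0.17 and from 0.09 to -0.05, and that of the subunits to -1.10 and -1.12.

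Between the untreated Green libraries of the benzene and imatinib runs the subunits went both ways, 15 higher and 16 lower of 31, with a median of -0.01. With every library weighted equally the median was -0.78, beside -0.90 over all genes. PSMB8 (3.42, and -0.97 without its highest library) was the only one at least 2-fold higher in the benzene run and PSMD3 (-2.75) the only one at least 2-fold lower, where 13.8% of 8400 genes were higher and 15.4% lower.

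**Figure D4:**
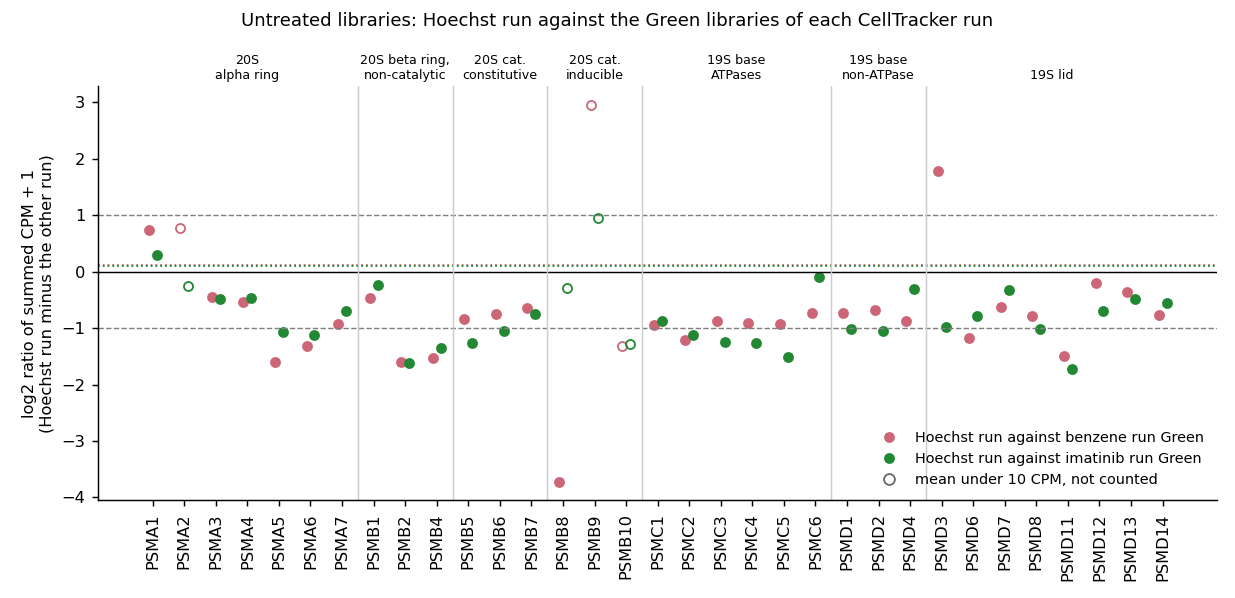
Log2 ratio of summed CPM + 1 of the Hoechst run against the Green libraries of the benzene run (red) and the imatinib run (green), for each subunit in the order of roles. Dashed lines mark 2-fold and dotted lines the medians of all genes (0.12 and 0.09); the counted subunits have medians of -0.81 and -0.98.

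The stain test asked whether treated Orange and untreated Green cells differed in the same way in both CellTracker runs. No subunit was called. Reads were summed per run and stain, giving 4 sums, and fitted with the run as a term by the quasi-likelihood test of edgeR with Benjamini-Hochberg adjustment. Of 17684 genes, 0 had an adjusted p under 0.05 (0% of genes), 439 had an unadjusted p under 0.05, and none of these was among the 33 subunits, whose adjusted p were all 1. DESeq2 called 117 genes and limma 0, with no subunit among them. The largest ratios of Orange over Green were 2.54 for PSMB9 and 0.66 for PSMB8, with unadjusted p from edgeR of 0.503 and 0.639, and the lowest was -0.70 for PSMB10. The first pair rest on single libraries and differ by run: in the benzene run PSMB9 was at 3.26, or 1.11 without its highest Orange library, and in the imatinib run at -0.81, while PSMB8 was at -1.04 and 1.85. The median over the subunits was 0.02 and that over all genes 0.02. The fit had 1 residual degree of freedom. Of 200 genes changed 8-fold in simulated counts it called 101, with 16 unchanged genes, at the dispersions estimated from these data, and 200, with 8 unchanged genes, at a dispersion of 0.02. A stain, a drug and their effects on either run cannot be told apart, and a change by 1 drug alone would not show as a shared one.

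Within a run, Orange over Green ratios were described without a test. In the benzene run 2 of 30 subunits were at least 1.5-fold higher in Orange libraries and 1 lower, where 23.2% of all 8363 genes were higher and 20.6% lower. PSMB6, which carries the caspase-like site, was the higher with the most reads: it ran from 1.98 through a median of 747 to 2113 CPM in Orange and from 1.47 through 367 to 1106 CPM in Green libraries, a log2 ratio of 0.86 (95% counting interval 0.84 to 0.89) that stayed between 0.80 and 0.94 without the highest library of either group. The median of Orange libraries was above that of Green libraries and the ranges overlapped. PSMB6 did not differ so in the imatinib run, where medians were 536 and 487 CPM and the ratio 0.01. PSMD3, at medians of 1.03 and 1.54 CPM, had a ratio of 0.74 that dropped to 0.29 without the highest Orange library. PSMB8 was lower, at -1.04, but at 3.35 without the highest Green library. PSMA3, an alpha subunit, was at 0.31. PSMD11 was at -0.55 in summed reads but at 0.12 with libraries of equal weight, and its median was 362.8 CPM in Orange and 328.5 CPM in Green libraries. PSMC1 was at -0.43 or, without the Green library with 31.7% of its reads, at 0.07.

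In the imatinib run 0 of 30 subunits were 1.5-fold higher and 0 lower, where 7.41% of 8281 genes were higher and 9.3% lower. The highest ratios were 0.24 for PSMA6, 0.20 for PSMB1 and 0.19 for PSMA7, and the lowest -0.28 for PSMB10, -0.27 for PSMD3 and -0.13 for PSMA3. Without the Green library with the most reads of each gene these last were -0.04, -0.04 and -0.06. PSMB1 ran from 361 through a median of 1021 to 1833 CPM in Orange and from 139.8 through 902 to 1437 CPM in Green libraries, and the groups overlapped over most of their range. Of the 29 subunits counted in both runs, 7 were higher and 1 lower in Orange libraries in both, and 21 went opposite ways. The matching shares over all genes were not computed, so these counts are not particular to the subunits. None was past 1.5-fold in both runs.

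**Figure D5:**
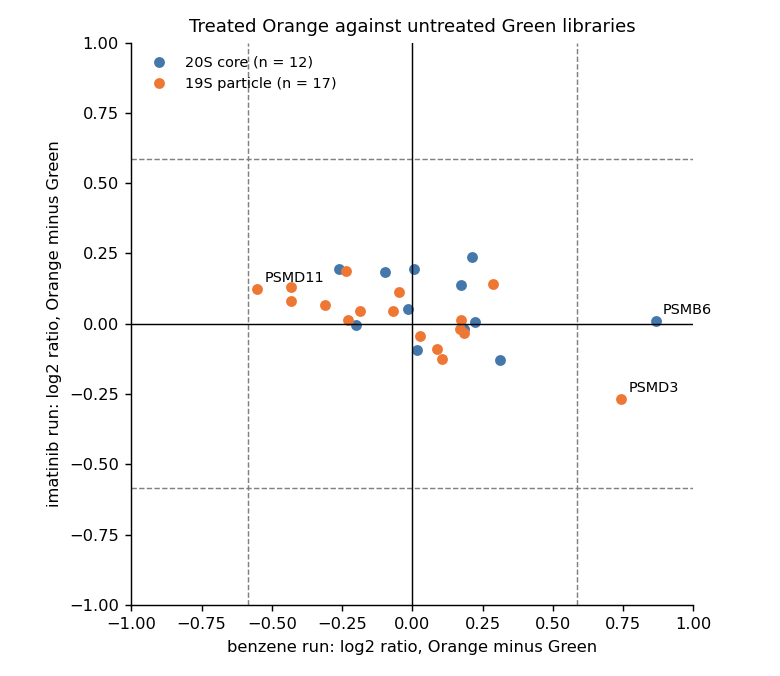
Log2 ratio of Orange over Green libraries in the benzene run (x axis) and in the imatinib run (y axis), 1 point per subunit counted in both runs. Dashed lines mark 1.5-fold; PSMB6 (0.86) and PSMD3 (0.74) lie past them in the benzene run and no subunit does in the imatinib run.

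Other genes of the pathway, 37 in a list of further subunits, activators, assembly chaperones, ubiquitin genes and regulators, were set beside the subunits. In the stain test 0 of 35 tested were called. Between untreated cells, 3 were at least 2-fold higher and 5 lower of 34 in the Hoechst run against the benzene run, with a median of -0.01, and 0 higher and 7 lower of 35 against the imatinib run, with a median of -0.18, both nearer 0 than the medians of the subunits. PSME2, a subunit of the 11S activator, was lower in both (-1.45 and -1.19), as was UBB, a polyubiquitin gene (-1.61 and -1.04), whereas POMP, the chaperone that assembles the beta ring, was at -0.11 and 0.23. NFE2L1 was at 49.6, 48.5 and 44.6 CPM in the 3 runs, with ratios of 0.37 and -0.14. PSMA8 and PSMB11, the subunits of the testis and thymus proteasomes, had no reads in any kept library.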

How the data were processed

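Single-cell cDNA was made by the authors on the C1 system with SMARTer chemistry and Nextera XT, which keeps no strand. Reads were trimmed, aligned to GRCh37 with HISAT2 and counted with featureCounts (Subread 1.5.0) for uniquely mapped reads on Ensembl genes. The deposited values are raw read counts per gene, and a deposited CPM table was not used. Spike-in rows (92, 7.92% of counts) were kept out of library totals. Of 267 titles, 4 had no column of their name, and 4 columns that carry no title of the labels were left out. Libraries were grouped by the treatment and stain in their labels and by the run in their titles.

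Gene symbols and lengths came from GENCODE v44lift37, which names 55665 of the identifiers (99% of reads). Levels are CPM over genes, and levels between genes are per kilobase of the main transcript. Ratios used a pseudocount of 1 CPM. edgeR 4.0.16 (R 4.3.3), with TMM and filterByExpr, was the main test, DESeq2 1.42.0 and limma 3.58.1 were alternatives, and Python 3.11.15 with scipy 1.17.1 did the rest. The test was checked on simulated counts. Where a gene has several promoter windows all were searched. The gamma-activated site, coding length, the beta ring correlations and ratios without the library with most reads of a gene were added after seeing the data.

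Named genes were the 3 highest and 3 lowest subunits by level in each run, the catalytic and inducible subunits, the 3 largest and 3 smallest counted ratios of each comparison, and the highest and lowest in correlation. The subunits and lists were chosen with earlier results of these data known. The labels do not say that libraries came from separate cultures. The numbers of the CellTracker runs served as the block of the stain test, because each run holds both stains.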

Additional observations from a re-analysis of the deposited data

How the results depend on the processing

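Of 135 values recomputed for 33 results under other settings, 112 counted as kept, 15 moved and 8 turned sign. A count was kept if it stayed within 1.5-fold of the main count. The 8 subunits 2-fold lower in the Hoechst run against the benzene run were thus kept at 11 with all libraries. Other values were kept within 1 SD over libraries or subunits, which allows large moves. The inducible share of 1.23%, 1.48% and 0.811% was 0.0187%, 0.0545% and 0.248% in the median library. The median between Green libraries of the CellTracker runs went from -0.01 to -0.78 with equal weights. In the stain test DESeq2 called 117 genes in place of 0. The median log2 ratio of the subunits, 0.02, was -0.0026 with limma, -0.0050 with no replicate block for the run and -0.0081 with all libraries. For 1 run alone the test was not fitted. The medians of the log2(CPM + 1) ratios of the counted subunits were 0.0105 in the benzene run and 0.0297 in the imatinib run. Without the block 0 genes were called, as with it. For Orange over Green in the benzene run, the number of subunits past 1.5-fold higher was 4 with libraries of equal weight and 1 with a pseudocount of 10 or with all libraries, and the number lower was 2 with TMM or without mitochondrial genes. The median of that run was -0.07036 with TMM, -0.0098 without mitochondrial genes and -0.0252 with all libraries. In the imatinib run equal weights gave 1 subunit lower and a median of -0.0393. For the Hoechst run against the benzene run, 2 subunits were past 2-fold higher with equal weights and 20 lower with TMM. Against the imatinib run 23 were lower with equal weights and 9 without mitochondrial genes. Between Green libraries of the CellTracker runs equal weights gave 0 higher and 12 lower, and TMM a median of 0.1184. With all libraries the median correlation of the Hoechst run was 0.339, and coding length kept 6 of the 10 highest subunits of the imatinib run. The cause of these changes was not tested. PSMB8 and PSMB9 had reads in few libraries, and PSMB10 and PSMA2 were at low counts where detected. Thinning the libraries took detection of PSMB8 in the Hoechst, benzene and imatinib runs from 8.54%, 9.23% and 7.37% to 6.25%, 9.23% and 6.32%. PSMB9 went from 7.32%, 3.08% and 10.5% to 3.75%, 3.08% and 6.32%. PSMB10 went from 26.8%, 40% and 56.8% to 17.5%, 27.7% and 48.4%. PSMA2 went from 70.7%, 50.8% and 65.3% to 36.25%, 23.1% and 44.2%. How far depth limits these genes was not tested. Each run was treated as 1 culture, so no result between runs has a replicate.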
